A study of Mus musculus with 6 samples.

Results

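Checkpoint and nectin-binding receptors are surface proteins that set how strongly a natural killer (NK) cell responds to the cell it touches. The 9 genes described here were chosen by symbol (Pdcd1, Lag3, Tigit, Cd96, Cd226, Havcr2, Ctla4, Cd160 and Cd200r1), by a rule that names no measured value, with earlier results of these data known, out of 37991 genes counted. Each matched 1 row of the count files. RNA sequencing was performed on NK cells from mouse spleen that carried CD27 and CD11b, the surface pair of an intermediate maturation stage. The 6 libraries comprised 3 Rroid-deficient and 3 wildtype libraries, all of the C57BL6 background. Rroid is a long noncoding RNA whose locus marks a regulatory element near Id2. The allele behind the deficiency, the cells in which it acts, and the age and number of animals are not stated in the labels. P-values therefore reflect how far these libraries vary, which may be technical variation alone.

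CD226, TIGIT and CD96 share ligands of the nectin family, above all CD155, the product of Pvr. CD226 activates NK cells on contact, TIGIT inhibits them, and CD96 has been described as inhibitory in mouse NK cells. PD-1 (Pdcd1), LAG-3 (Lag3), TIM-3 (Havcr2) and CTLA-4 (Ctla4) are inhibitory receptors best known from activated and exhausted T cells. CD160 is a membrane-anchored receptor that binds HVEM (Tnfrsf14), and CD200R1 is an inhibitory receptor for CD200.

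Between 5823626 and 9216430 reads per library were assigned to genes. Levels are given as CPM, library-size-normalised counts scaled by the trimmed mean of M values (TMM). The floor used for a gene without reads, 3 counts in a library, was 0.322 to 0.489 CPM and covers counting error only. Id2, an inhibitor of E protein transcription factors and the gene near the element, had 38.9, 66.7 and 81.2 CPM in the Rroid-deficient libraries and 468, 338 and 341 CPM in the wildtype libraries (log2 fold change -2.62, SE 0.30, edgeR quasi-likelihood adjusted p = 0.0308). The Id2 call was lost without any 1 of the 6 libraries (edgeR adjusted p 0.0589 to 0.316), without the 2 libraries with most genes at 0 (0.0791) and with the replicate number as a block (0.309), while its log2 fold change stayed between -2.86 and -2.20 in all alternatives run. All 11 NK cell markers were detected, and their summed level was 10213 to 10884 CPM in Rroid-deficient libraries and 11907 to 14457 CPM in wildtype libraries. Of 13 T cell markers 11 had a count, though 4 of the 13 had at most 3 counts in every library. They summed to 349 to 454 CPM in Rroid-deficient libraries and 181 to 289 CPM in wildtype libraries. In every library most of this sum came from the T cell receptor genes Trbc1 and Trbc2. Whether T cells or NK cells gave these reads was not tested. The CD3 chain gene Cd3g had 67.2, 54.8 and 68.2 CPM in Rroid-deficient and 5.69, 4.62 and 8.34 CPM in wildtype libraries, and Cd3d had 24.1, 56.6 and 67.1 CPM in Rroid-deficient and 4.94, 6.76 and 8.65 CPM in wildtype libraries. The T cell receptor gene Trbc2 was likewise above wildtype in every Rroid-deficient library, at 91.7 to 125 CPM in Rroid-deficient and 41.4 to 62.2 CPM in wildtype libraries, whereas Bcl11b had 1.3 to 2.94 CPM in Rroid-deficient and 7.71 to 23.1 CPM in wildtype libraries. Trbc1, a further T cell receptor gene, overlapped, at 165, 134 and 187 CPM in Rroid-deficient and 179, 103 and 135 CPM in wildtype libraries. Cd8a and Cd6 had no count in any library and Cd3e had 3 reads in 1 wildtype library. Genes at a count of 0 made up 5.57% of tested genes in Rroid-deficient library 1 and 5.63% in wildtype library 1, against 0.23% to 2.43% in the other 4 libraries. Of 6 B cell markers 4 had a count, with sums of 2.28 to 7.64 CPM in Rroid-deficient libraries and 2.2 to 7.94 CPM in wildtype libraries. Of 10 myeloid and dendritic markers, 7 had at most 3 counts in every library. Their sum, most of it from Itgax, which NK cells also express, was 380 to 438 CPM in Rroid-deficient libraries and 420 to 502 CPM in wildtype libraries.

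The comparison of genotypes asked whether loss of Rroid altered these receptors. Of the 9 genes, 5 had enough reads to be tested (Cd96, Cd160, Tigit, Cd226 and Lag3). With the edgeR quasi-likelihood test none of the 5 passed an adjusted threshold of 0.05, and 0 had an unadjusted p under 0.05. Across all 11724 genes tested, 0.0171% passed and 5.29% had an unadjusted p under 0.05. DESeq2, limma-voom and edgeR without a count filter also called 0 receptor genes. Their shares of called genes were 0.569% for DESeq2 on filtered genes, 0.715% for DESeq2 without a filter, 0.00853% for limma-voom, 0.0682% for limma-voom with quality weights and 0.495% for edgeR without a filter. Cd226 was the 1 receptor gene whose libraries did not overlap between genotypes, against 12.4% of all genes tested. The median log2 fold change of the 5 genes was -0.13, against 0.024 over all genes tested. The 4 genes that were not tested had at most 15 reads in any library.

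**Figure D1:**
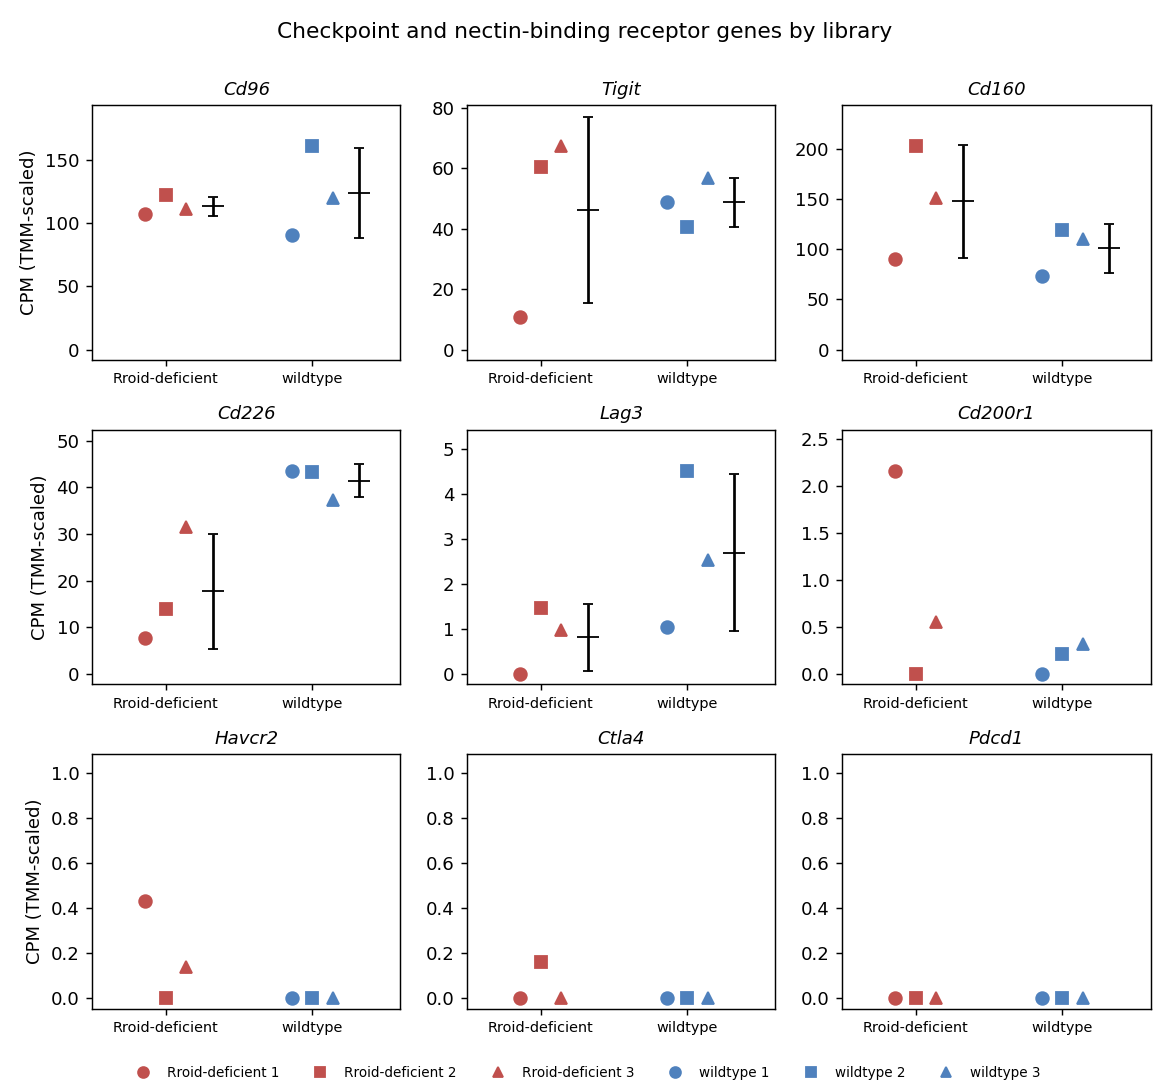
TMM-scaled CPM (vertical axis, linear, a separate scale per gene) of the 9 receptor genes in the 3 Rroid-deficient libraries (red, left) and the 3 wildtype libraries (blue, right); marker shape gives the library number, and the black bars of the 5 tested genes give mean ± SD (n = 3). Cd226 lies at 7.78 to 31.5 CPM in Rroid-deficient libraries and 37.3 to 43.6 CPM in wildtype libraries, while the other genes overlap or are at or near 0.

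Of the nectin-binding receptors, the activating receptor gene Cd226 had 7.78, 13.9 and 31.5 CPM in Rroid-deficient libraries 1 to 3, from 54, 85 and 228 reads. It had 43.6, 43.4 and 37.3 CPM in wildtype libraries 1 to 3, from 291, 404 and 237 reads. Every Rroid-deficient library lay below every wildtype library, as was the case for 6.33% of the genes tested. The wildtype values lay close together, within 1.17-fold of each other, whereas the Rroid-deficient values spanned 4.05-fold. Cd226 averaged 17.7 ± 12.3 CPM in Rroid-deficient and 41.4 ± 3.58 CPM in wildtype libraries (SD, n = 3 each). On the log2 scale the difference was -1.22 with an SE of 0.57 (95% interval -2.50 to 0.05, edgeR quasi-likelihood adjusted p = 0.914). The interval runs from a 5.65-fold lower level to one 1.04-fold higher in Rroid-deficient cells. Without Rroid-deficient library 3, the library nearest to wildtype, the log2 fold change was -1.94, and without Rroid-deficient library 1 it was -0.87. The summed NK cell markers, given above, also did not overlap between genotypes. Without Gzma, the granzyme A gene, which alone had 2315 to 2726 CPM in Rroid-deficient and 3917 to 5496 CPM in wildtype libraries, the sums overlapped, at 7573 to 8569 CPM in Rroid-deficient and 7817 to 9343 CPM in wildtype libraries. Their part in the Cd226 values was not tested. In RNA from sorted populations, fewer cells that express a gene and less RNA per cell cannot be told apart.

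Tigit, the inhibitory receptor gene that competes with CD226 for CD155, had 10.7, 60.5 and 67.3 CPM in Rroid-deficient libraries 1 to 3. In wildtype libraries 1 to 3 it had 48.7, 40.4 and 56.9 CPM. Rroid-deficient library 1 stood apart with 74 reads, and the other Rroid-deficient libraries, with 371 and 487 reads, lay above all 3 wildtype libraries. The means were 46.2 ± 30.9 CPM in Rroid-deficient and 48.7 ± 8.28 CPM in wildtype libraries (SD, n = 3 each), and the log2 fold change was -0.08 (95% interval -1.39 to 1.24, edgeR quasi-likelihood adjusted p = 0.993). Without Rroid-deficient library 1 the log2 fold change was 0.39. It was 0.05 without wildtype library 3, so its sign rests on single libraries. Levels from 2.62-fold lower to 2.36-fold higher in Rroid-deficient cells lie within the interval.

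Cd96 had 107, 122 and 111 CPM in Rroid-deficient libraries 1 to 3 and 90.6, 161 and 120 CPM in wildtype libraries 1 to 3. The wildtype libraries enclosed all the Rroid-deficient ones. Cd96 averaged 113 ± 7.47 CPM in Rroid-deficient and 124 ± 35.3 CPM in wildtype libraries (SD, n = 3 each). Its log2 fold change of -0.13 (SE 0.28, 95% interval -0.74 to 0.48, edgeR quasi-likelihood adjusted p = 0.964) was the most precise of the 5. The interval reaches from 0.598 to 1.4 times the wildtype level.

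Levels of the 3 nectin-binding receptor genes were set against each other per kb of exonic length. Cd226 made up 2.55%, 2.28% and 4.94% of their summed CPM per kb in Rroid-deficient libraries 1 to 3, against 8.62%, 7.01% and 6.13% in wildtype libraries 1 to 3. Per kb, the activating receptor held the smallest share in every library, and a smaller one in each Rroid-deficient library than in any wildtype library. The rank below Tigit depends on the exonic lengths, 4891 bases for Cd226 and 919 for Tigit. In CPM not divided by length, Cd226 was above Tigit in wildtype library 2, at 43.4 against 40.4. Even coverage along the transcripts was not tested. Per kb, Cd96 stood at 30.9, 19.6 and 7.86 times Cd226 in Rroid-deficient libraries and at 4.66, 8.3 and 7.18 times Cd226 in wildtype libraries. This ratio overlapped between genotypes, since Rroid-deficient library 3 lay among the wildtype values. The ratio of Tigit to Cd226 was 7.29, 23.2 and 11.4 in Rroid-deficient libraries and 5.94, 4.95 and 8.13 in wildtype libraries, and also overlapped. These shares use the same counts as the values above and were not tested.

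**Figure D2:**
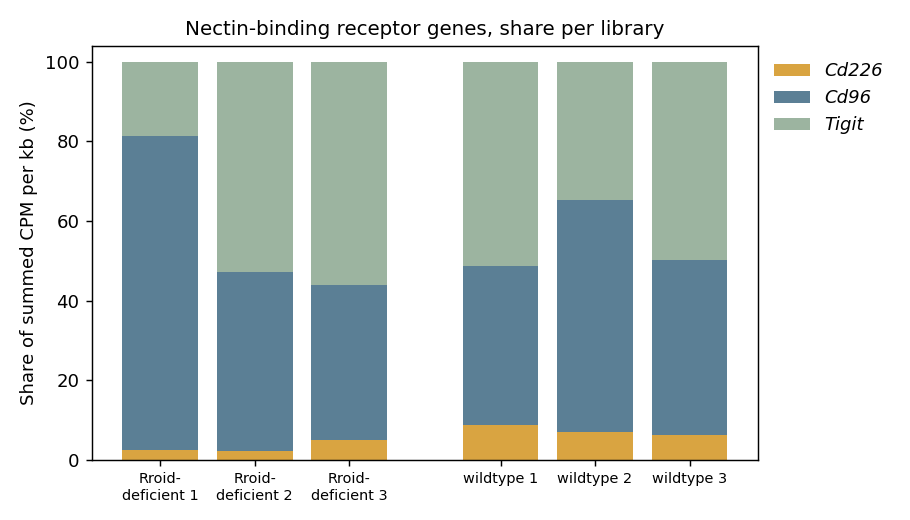
Stacked bars give the share (vertical axis, percent) of Cd226, Cd96 and Tigit in the sum of their CPM per kb of exonic length, for each Rroid-deficient library (left) and each wildtype library (right). The Cd226 share is 2.28% to 4.94% in Rroid-deficient libraries and 6.13% to 8.62% in wildtype libraries, and Tigit is lowest in Rroid-deficient library 1 at 18.6%.

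Cd160, the receptor gene for HVEM, had 90.4, 203 and 151 CPM in Rroid-deficient libraries 1 to 3. It had 73.5, 119 and 110 CPM in wildtype libraries 1 to 3. Rroid-deficient libraries 2 and 3 lay above all wildtype libraries, and library 1 fell among them. The means were 148 ± 56.4 CPM in Rroid-deficient and 101 ± 24 CPM in wildtype libraries (SD, n = 3 each), with a log2 fold change of 0.55 (SE 0.33, 95% interval -0.19 to 1.30, edgeR quasi-likelihood adjusted p = 0.925). Leaving out Rroid-deficient library 2 gave 0.25. Pdzk1, on the opposite strand, shares 68 annotated exonic bases with Cd160. It had 64, 74 and 20 reads in Rroid-deficient libraries and 36, 101 and 57 reads in wildtype libraries, few beside the 491 to 1245 reads of Cd160. The library kit does not mark strand.

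Among the receptors best known from T cells, Lag3, a relative of CD4 that binds MHC class II and FGL1, was at the edge of detection. Its counts were 0, 9 and 7 reads in Rroid-deficient libraries and 7, 42 and 16 reads in wildtype libraries. These correspond to 0, 1.47 and 0.968 CPM in Rroid-deficient libraries and to 1.05, 4.51 and 2.52 CPM in wildtype libraries. The groups overlapped, and wildtype library 2 supplied 42 of the 65 wildtype reads. The log2 fold change was -1.72 with an SE of 1.45 (95% interval -4.95 to 1.51, edgeR quasi-likelihood adjusted p = 0.927), so that several-fold differences in either direction lie within the interval.

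Pdcd1 had no read in any of the 6 libraries, where the floor was 0.322 to 0.489 CPM and covers counting error only. Ctla4 had a single read, in Rroid-deficient library 2. Havcr2 had 3, 0 and 1 reads in Rroid-deficient libraries and 0, 0 and 0 reads in wildtype libraries. Both genes were at or under the floor in every library, and no fold change is given. The pseudogene Rpl18-ps1 lies within Ctla4 but shares no annotated exonic base with it. Cd200r1 had 15, 0 and 4 reads in Rroid-deficient libraries and 0, 2 and 2 reads in wildtype libraries. Rroid-deficient library 1, at 2.16 CPM, held 15 of the 19 reads of its group, and the groups overlapped. The paralog Cd200r4 was more abundant, at 32 ± 15.3 CPM in Rroid-deficient and 32.1 ± 7.55 CPM in wildtype libraries (SD, n = 3 each). Reads that cannot be told apart between these paralogs make the count of each uncertain.

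Per kb of exonic length the 9 genes were far apart. Cd96 had 51.8 ± 3.42 CPM per kb in Rroid-deficient and 56.6 ± 16.2 in wildtype libraries (SD, n = 3 each, as below). Tigit had 50.2 ± 33.7 CPM per kb in Rroid-deficient and 53 ± 9.01 in wildtype libraries, and Cd160 had 56 ± 21.4 in Rroid-deficient and 38.2 ± 9.08 in wildtype libraries. These 3 genes overlapped in range within each genotype, and 93.6% to 94.7% of tested genes had a lower mean level per kb. Cd226 followed at 3.62 ± 2.52 CPM per kb in Rroid-deficient and 8.47 ± 0.733 in wildtype libraries, and each library had less Cd226 than any of the upper 3. It lay near the middle of all tested genes, of which 49.1% were lower. Lag3, at 0.385 ± 0.354 CPM per kb in Rroid-deficient and 1.28 ± 0.824 in wildtype libraries, lay below Cd226 in every library, and 6.38% of tested genes were lower. Cd200r1, Havcr2, Ctla4 and Pdcd1 had the lowest means, with ranges that overlapped each other. In Rroid-deficient library 1, Cd200r1 (0.646 CPM per kb) and Havcr2 (0.159) lay above Lag3, which had 0.

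Variation within a genotype was unevenly divided among libraries. Rroid-deficient library 1 was the lowest of its group for all 5 tested receptor genes. Wildtype library 1 was the lowest of its group for 3 of the 5 (Cd96, Cd160 and Lag3) but the highest for Cd226. These are the libraries with the most genes at 0, as given above, and the part of that difference in the receptor values was not tested. Without both of them the log2 fold changes were -0.83 for Cd226, 0.39 for Tigit, -0.28 for Cd96, 0.62 for Cd160 and -1.53 for Lag3, and none passed.

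**Figure D3:**
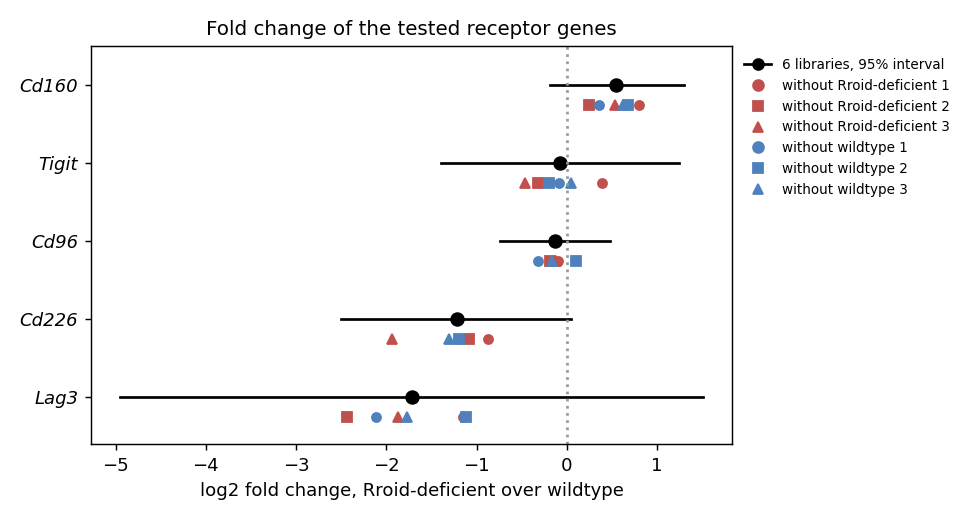
Log2 fold change, Rroid-deficient over wildtype (horizontal axis), of the 5 tested receptor genes in edgeR's quasi-likelihood fit of all 6 libraries (black point, line for the 95% interval), with the values obtained when each library was left out (coloured markers just below). All intervals include 0; Cd226 stays between -1.94 and -0.87, whereas Tigit moves from -0.46 to 0.39.

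Start regions are shown for the 3 abundant receptor genes, because Id2, lower in the Rroid-deficient libraries, encodes a protein that restrains E proteins, and E proteins bind the E-box CANNTG. Sequences are from RefSeq (GRCm38.p6, a later build than that of the counts), run from 250 bases before to 50 bases after the annotated start, 5′ to 3′ on the gene's strand, with every CANNTG in capitals. Tigit is on the minus strand at chr16:43664135-43664434, Cd96 on the minus strand at chr16:46120199-46120498, and Cd160 has 2 annotated starts on the minus strand, at chr3:96829302-96829601 and chr3:96814472-96814771.
Tigit: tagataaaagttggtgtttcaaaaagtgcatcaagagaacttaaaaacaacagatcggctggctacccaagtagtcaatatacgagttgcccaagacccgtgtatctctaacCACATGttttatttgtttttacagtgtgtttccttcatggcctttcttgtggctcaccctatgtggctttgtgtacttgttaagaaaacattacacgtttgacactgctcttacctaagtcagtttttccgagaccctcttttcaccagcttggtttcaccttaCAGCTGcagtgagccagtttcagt
Cd96: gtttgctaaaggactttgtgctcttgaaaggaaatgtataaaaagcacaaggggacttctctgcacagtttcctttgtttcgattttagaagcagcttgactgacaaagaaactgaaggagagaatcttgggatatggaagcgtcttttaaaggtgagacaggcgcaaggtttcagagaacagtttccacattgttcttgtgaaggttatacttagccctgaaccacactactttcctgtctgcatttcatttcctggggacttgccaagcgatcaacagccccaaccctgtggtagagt
Cd160, start 1: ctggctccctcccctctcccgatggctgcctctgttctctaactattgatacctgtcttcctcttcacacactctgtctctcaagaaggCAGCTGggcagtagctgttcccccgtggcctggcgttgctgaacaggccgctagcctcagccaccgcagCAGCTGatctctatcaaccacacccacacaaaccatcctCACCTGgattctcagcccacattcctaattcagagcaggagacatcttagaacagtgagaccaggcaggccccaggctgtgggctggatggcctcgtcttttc
Cd160, start 2: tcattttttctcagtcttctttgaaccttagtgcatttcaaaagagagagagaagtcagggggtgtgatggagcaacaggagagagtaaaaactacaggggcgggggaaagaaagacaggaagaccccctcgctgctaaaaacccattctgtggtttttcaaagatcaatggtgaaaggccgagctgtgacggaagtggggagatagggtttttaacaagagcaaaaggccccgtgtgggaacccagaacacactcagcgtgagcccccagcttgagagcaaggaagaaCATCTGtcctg

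The Tigit window held 2 matches, CACATG at -138 and CAGCTG at +27, counted from the start site. The first Cd160 window held 3, CAGCTG at -161 and at -92 and CACCTG at -53, and the second held CATCTG at +40. The Cd96 window held none. CANNTG, which has the same form on both strands, was found in 72.3% of 32851 promoter windows of this length, CAGCTG, one of its forms, in 16.3%, and CAGGTG on either strand (CACCTG on the other) in 20.2%. Of the genes with few or no reads, the Ctla4 window held 2 matches and the Pdcd1 and Havcr2 windows none. No window of this length was available for Cd226, Lag3 and Cd200r1, so their start regions were not examined. A match is a description of the letters and says nothing of binding, and Tigit and Cd160 did not pass the test.

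The ligands of these receptors were examined as a list of 17 genes, of which 14 had a count and 7 were tested. None passed, and 0 had an unadjusted p under 0.05; the median log2 fold change was -0.19. Among the nectin-family ligands, Pvr had 9.47 ± 3.34 CPM in Rroid-deficient and 10.8 ± 6.65 CPM in wildtype libraries (SD, n = 3 each), and Nectin1 and Nectin3 had no read. Nectin2, the second ligand of CD226, had no read in any Rroid-deficient library and 0, 21 and 6 reads in wildtype libraries. Cd274, which encodes the PD-1 ligand PD-L1, had 78.3, 151 and 55.3 CPM in Rroid-deficient and 14.7, 62.3 and 61 CPM in wildtype libraries (log2 fold change 1.04, SE 0.56, edgeR quasi-likelihood adjusted p = 0.925). The groups overlapped, with wildtype library 1 the lowest. Pdcd1lg2, the gene of the other PD-1 ligand, had 31, 27 and 97 reads in Rroid-deficient and 0, 34 and 14 reads in wildtype libraries. Its CPM did not overlap between genotypes, by a narrow gap of 4.4 CPM in Rroid-deficient library 2 against 3.65 CPM in wildtype library 2. All Rroid-deficient libraries lay above all wildtype libraries in 6.03% of all genes tested. The log2 fold change of Pdcd1lg2 was 1.91 (SE 1.38, edgeR quasi-likelihood adjusted p = 0.925). In Lgals3, a galectin gene whose product binds LAG-3, 1, 8 and 22 reads were counted in Rroid-deficient and 18, 51 and 35 reads in wildtype libraries (log2 fold change -1.59, SE 1.25, edgeR quasi-likelihood adjusted p = 0.925). These transcripts were measured in the sorted NK cells themselves, not in their target cells.

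Of 20 other receptors of these families, 19 had a row, 10 were tested and none passed (median log2 fold change -0.21). An unadjusted p under 0.05 was found for 3, 1 higher and 2 lower, where 2.76% of all tested genes were higher and 2.52% lower by this measure. In addition, 3 had all Rroid-deficient libraries above and 2 all below the wildtype libraries, against 6.03% above and 6.33% below over all genes tested. Cd28, the costimulatory relative of CTLA-4, averaged 337 ± 114 CPM in Rroid-deficient and 177 ± 15 CPM in wildtype libraries (SD, n = 3 each; log2 fold change 0.93, SE 0.25, edgeR quasi-likelihood adjusted p = 0.757). The summed T cell markers, and Cd3g, Cd3d and Trbc2 among them, were also higher in each Rroid-deficient library. Of the other T cell markers, Trbc1 and Trac overlapped between genotypes and Bcl11b was lower in each Rroid-deficient library. Cd3e was at or near 0. In Rroid-deficient libraries 1 to 3, Cd28 had 468, 273 and 271 CPM, and the T cell markers summed to 383, 349 and 454 CPM. The part of the T cell markers in the Cd28 values was not tested. Klrg1, an inhibitory receptor gene of mature NK cells, averaged 41.4 ± 12 CPM in Rroid-deficient and 103 ± 36.6 CPM in wildtype libraries (log2 fold change -1.31, edgeR quasi-likelihood adjusted p = 0.895). Tnfrsf9, which encodes the costimulatory receptor 4-1BB, averaged 98 ± 10.7 CPM in Rroid-deficient and 152 ± 39.1 CPM in wildtype libraries (log2 fold change -0.63, edgeR quasi-likelihood adjusted p = 0.914). Crtam, a further nectin-family binder, named after its values were seen, averaged 83.3 ± 15.4 CPM in Rroid-deficient and 52.6 ± 5.15 CPM in wildtype libraries, without overlap (log2 fold change 0.66, edgeR quasi-likelihood adjusted p = 0.914).

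All 22 signalling partners were tested and none passed, with a median log2 fold change of 0.12. Here 3 had an unadjusted p under 0.05, against 5.29% of all genes tested. Libraries did not overlap in 5, these 3 with Itgb2 and Rasa1, of which 2 lay above and 3 below wildtype, against 12.4% of all genes tested. Bag6, whose product binds the TIM-3 tail, averaged 78.9 ± 13.9 CPM in Rroid-deficient and 144 ± 42 CPM in wildtype libraries (SD, n = 3 each; log2 fold change -0.86, edgeR quasi-likelihood adjusted p = 0.899). Ptpn6, the gene of the phosphatase SHP-1 that acts below many inhibitory receptors, averaged 113 ± 24.1 CPM in Rroid-deficient and 62 ± 17.3 CPM in wildtype libraries (log2 fold change 0.86, edgeR quasi-likelihood adjusted p = 0.906). Arrb2, a beta-arrestin gene linked to TIGIT signalling, averaged 88.9 ± 18.8 CPM in Rroid-deficient and 142 ± 36.4 CPM in wildtype libraries (log2 fold change -0.68, edgeR quasi-likelihood adjusted p = 0.914).

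Of 15 transcription factors linked to checkpoint receptor genes, 14 were tested and none passed, with a median log2 fold change of -0.03. The 3 with the smallest p, each under 0.05 unadjusted, were those whose libraries did not overlap, against 5.29% and 12.4% of all genes tested. Nr4a3, an early-response nuclear receptor gene, averaged 126 ± 31.1 CPM in Rroid-deficient and 50.7 ± 1.52 CPM in wildtype libraries (SD, n = 3 each; log2 fold change 1.31, SE 0.30, edgeR quasi-likelihood adjusted p = 0.572). DESeq2 on the same genes called it (adjusted p = 0.0158). Prdm1, which encodes the repressor Blimp-1, averaged 103 ± 8.47 CPM in Rroid-deficient and 177 ± 15.3 CPM in wildtype libraries (log2 fold change -0.78, edgeR quasi-likelihood adjusted p = 0.895). Nfatc1, a calcium-responsive factor gene, averaged 298 ± 26.5 CPM in Rroid-deficient and 413 ± 21.5 CPM in wildtype libraries (log2 fold change -0.47, edgeR quasi-likelihood adjusted p = 0.906).

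**Figure D4:**
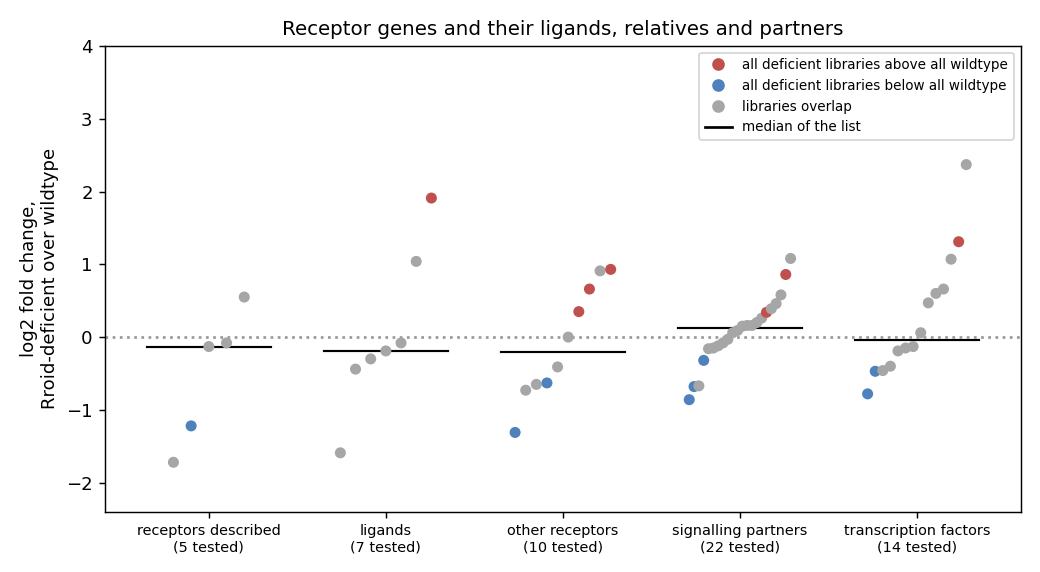
Log2 fold change, Rroid-deficient over wildtype (vertical axis), of each tested gene in the receptor set and in 4 lists of ligands, other receptors, signalling partners and transcription factors; black lines give list medians, and colour marks genes whose libraries do not overlap between genotypes. The medians lie between -0.21 and 0.12, and Cd226 is the coloured point among the 5 receptors.

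The genes whose pattern over the 6 libraries was most like that of Cd160 and Cd96, the receptor genes of highest mean CPM, were sought among 5761 protein-coding genes by Pearson's r of log2 CPM. For Cd160 these were Vps36 (r = 0.989), Larp4 (0.988), Ccdc12 (0.985), Exoc4 (0.984) and Zranb1 (0.978). For Cd96 they were Gnptab (r = 0.976), Clint1 (0.97), Sntb2 (0.966), Ik (0.961) and Ankrd40 (0.952). The points are 6 libraries that also differ in depth and in genes at 0, and high values of r arise readily over so few libraries, so these are descriptions only.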

How the data were processed

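Per the labels' protocols, an Ovation V2 kit amplified the RNA of splenic NK cells and single reads were sequenced. HTSeq 0.6.1, TopHat2 2.1.0, Trimmomatic 0.33 and DESeq2, with builds mm9 and NCBIM37, are listed in the submitters' processing notes. The authors deposited raw counts per Ensembl gene for each library; no source used here gives the strand setting. The 5 rows that name no gene held 80.0% to 84.4% of all listed counts and were left out. Of unique reads, 72.8% to 79.1% lay in no gene. Symbols, exonic lengths and overlaps came from GENCODE M21 (GRCm38).

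Counts were fitted with edgeR 4.0.16 (R 4.3.3): TMM scaling, filterByExpr, a quasi-likelihood test on genotype over 11724 genes, and Benjamini-Hochberg adjustment at 0.05. The fit was tested on simulated data. The SE is the fold change divided by the root of F. Alternatives used limma 3.58.1 and DESeq2 1.42.0. Every pair of libraries differed beyond sampling noise (chi-square over degrees of freedom 19.2 or more).

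Named were the 9 receptor genes, Id2, genes overlapping a receptor gene, the 3 genes of smallest p per list, and the 5 genes most like each of the 2 most abundant receptors. Crtam, Cd200r4, Pvr, the nectin genes, the single marker genes, Itgb2, Rasa1, and those of the closing section were named after their values were seen. The members and lists were chosen with earlier results of these data known.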

Additional observations from a re-analysis of the deposited data

How the results depend on the processing

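None of the 5 tested receptor genes passed in any of the 17 alternatives run, nor did any ligand, other receptor or signalling partner. Among the transcription factors, DESeq2 called 1 gene, Nr4a3, with and without a filter. Over all genes, edgeR called 2. RLE and upper-quartile scaling, the stricter filter and a threshold of 0.1 stayed within 1.5 times of that count, DESeq2 called 65 on filtered genes and 88 without a filter, limma-voom 1 and 8 with quality weights, and edgeR without a filter 98. The count was 0 without any 1 library (0 to 0), 0 without the 2 libraries with most genes at 0, and 0 with the replicate number as a block. Deviations from the group means had r of 0.0342, -0.0127 and 0.0625 between same-numbered libraries. The labels do not state whether the numbers pair the libraries, and r over all genes tested cannot decide it. With the block the log2 fold change of Cd226 was -1.46.

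Cd226 stayed negative (-1.94 to -0.83), as did Lag3 (-2.44 to -1.12), and Cd160 stayed positive (0.25 to 0.80) in every alternative in which they were tested; the stricter filter removed Lag3. Tigit turned positive with quality weights (0.06), without Rroid-deficient library 1 (0.39), without wildtype library 3 (0.05) and without the 2 libraries with most genes at 0 (0.39). Cd96 turned positive without wildtype library 2 (0.10). Leaving out 1 library at a time gave -0.46 to 0.39 for Tigit, -0.32 to 0.10 for Cd96, -1.94 to -0.87 for Cd226, 0.25 to 0.80 for Cd160 and -2.44 to -1.12 for Lag3. The 95% intervals of all 5 genes include changes in both directions, and 4 genes had too few reads to be tested. The cause of these shifts was not tested.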

Other observations

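Several further relatives and ligands had few reads or reads in some libraries alone. Havcr1 had no read in any library. Btla, which like CD160 binds HVEM, had 0, 0 and 10 reads in Rroid-deficient libraries and 0, 0 and 0 reads in wildtype libraries. Cd200r2 had 0, 0 and 3 reads in Rroid-deficient and 0, 36 and 3 reads in wildtype libraries. Cd86, a ligand of CTLA-4 and CD28, had 1, 44 and 47 reads in Rroid-deficient and 2, 10 and 4 reads in wildtype libraries. Cd101 had 112, 1 and 9 reads in Rroid-deficient and 0, 20 and 1 reads in wildtype libraries, so that a single library held most of its reads.

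Markers of regulatory T cells, which express Ctla4 and Tigit, were Foxp3, Il2ra, Ikzf2 and Ikzf4. Ctla4 had 1 read in all. Foxp3 had 43, 88 and 1 reads in Rroid-deficient and 11, 10 and 36 reads in wildtype libraries, with overlap. Il2ra had 162, 101 and 53 reads in Rroid-deficient and 28, 30 and 30 reads in wildtype libraries, without overlap. All Rroid-deficient libraries lay above all wildtype libraries in 6.03% of all genes tested. Ikzf2 had 46, 456 and 167 reads in Rroid-deficient and 300, 345 and 246 reads in wildtype libraries, with overlap. Ikzf4 had 2 reads, in wildtype library 1. Over the whole list of 4 such markers, all with a count, the sum was 30.6 to 105 CPM in Rroid-deficient and 41.3 to 51.1 CPM in wildtype libraries. Except in Rroid-deficient library 1, most of this sum came from Ikzf2. Whether regulatory T cells or NK cells gave these reads was not tested. Cd4 (57 reads) and Cd8b1 (37 reads) were detected in wildtype library 1 alone. The 5 ILC1 markers summed to 59 to 68.5 CPM in Rroid-deficient and 33 to 58.2 CPM in wildtype libraries, and the 4 ILC2 and ILC3 markers, most of whose reads came from Gata3, to 55 to 73.5 CPM in Rroid-deficient and 50.2 to 71.9 CPM in wildtype libraries.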
